A study of Mus musculus with 80 samples.

Results

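The contrast described here sets livers of mice given PFESA-BP2 (Nafion byproduct 2, a perfluorinated alkyl substance with ether and sulfonic acid groups) at 0.03 mg/kg-day, the lowest dose of the study, against livers of vehicle controls. Its members were taken from the sample titles alone, with no measured value used: 4 mice titled 0.03 (libraries 9 to 12) and 4 mice titled 0 (libraries 1 to 4), which makes 8 of the 20 libraries and 32 of the 80 lane samples. All 8 animals were female Balb-C mice aged 10 to 12 weeks, dosed by gavage once daily for 7 days, and each library came from the liver of a single animal and was run over 4 lanes. The other mice of the series received doses of 0.3, of 3.0 or of 6.0 mg/kg-day, 4 mice at each. The vehicle of the controls is unsettled in the labels, since the titles name DMSO and the protocol names deionized water. The values were deposited as estimated counts per gene, with 22103 rows, of which 15197 had enough counts to be tested. Levels are given below as CPM, the counts scaled to the library's total over the tested genes. That total was first adjusted by a scaling factor for each library (TMM). The series is titled as targeted sequencing, while the table has rows for genes across the genome and no list of targets was used here, so the kind of library is unsettled.

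Perfluorinated acids are known in rodent liver for acting through nuclear receptors. The receptors CAR and PXR respond to foreign chemicals and raise transcription of cytochrome P450s of the Cyp2b, Cyp2c and Cyp3a families, of conjugating enzymes and of transporters. PPARA, the receptor for fatty acids, raises genes of fatty acid oxidation and of the Cyp4a family. Liver transcription in mice also differs between the sexes, which is set largely by the pattern of growth hormone pulses acting through STAT5.

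Total counts in the 8 libraries lay between 15961150 and 19549939 in the 0.03 mg/kg-day group and between 13086779 and 21467012 in the vehicle group. The number of genes detected averaged 20020 ± 220 in the 0.03 mg/kg-day group and 19860 ± 233 in the vehicle group (SD, n = 4 each), and the difference had p = 0.314 in a two-sided exact permutation test over 70 splits, whose smallest possible p is 0.0286. Hepatocyte genes dominated both groups, with Alb at 101930 to 136790 CPM in the 0.03 mg/kg-day livers and 101620 to 145320 CPM in the vehicle livers. In each of the 5 dose groups 1 library stood apart from its other members on the first principal component of the within-group variation, which held 42.7% of that variation: library 11 in the 0.03 mg/kg-day group and library 3 in the vehicle group, with libraries 15, 19 and 23 in the others. Library 11 had 179.6 CPM of the ribosomal RNA row AY036118, against 2874 to 6097 CPM in the other 0.03 mg/kg-day libraries, and library 3 had 188.5 CPM, against 2464 to 4246 CPM in the other vehicle libraries. The counts of calls and of the main gene lists are therefore also given without these 5 libraries, a choice made after seeing the data. These 5 libraries hold the same place in the numbering of their groups. The labels do not say what that place stands for, and it was not tested.

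0 genes passed an adjusted p of 0.05 between 0.03 mg/kg-day and vehicle in edgeR's quasi-likelihood test across all 15197 genes (0% called). The smallest adjusted p was 0.0502, for Dnaic1. DESeq2 passed 10 genes and limma-voom passed 1 on the same libraries. An unadjusted p under 0.05 was reached by 565 genes (3.72%), of which 258 (1.7%) were higher and 307 (2.02%) were lower at 0.03 mg/kg-day. Without scaling factors that split turned to 354 higher and 165 lower of 519 genes, so the balance of higher and lower genes rests on the scaling. The 2 groups did not overlap for 504 genes (3.32%), with 285 (1.88%) higher and 219 (1.44%) lower, and with 391 higher and 110 lower when no scaling factors were used. Where groups do not differ, a share of about 0.05 of genes reaches an unadjusted p under 0.05. In that case 4 values lie fully apart from 4 others in a share of 0.0286 of the 70 splits. Both counts are descriptions. Without libraries 3, 11, 15, 19 and 23, 1197 genes reached an unadjusted p under 0.05 and 2 genes passed, Dnaic1 and Ankrd55. With all mice kept and a term for these libraries in the fit, also chosen after seeing the data, 13 genes passed, 1 higher (Cyp2b10) and 12 lower, and 1272 had an unadjusted p under 0.05.

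Most genes lay within a narrow range. The 95% interval of the fold change fell inside a 2-fold change in either direction for 12480 genes (82.1%), and for 7347 (97.5%) of the 7539 genes with a mean of 10 CPM or more. The median log2 fold change over all genes was −0.01, and 143 genes (0.941%) differed by 2-fold or more in their fitted value. A p that misses the threshold does not show that the groups were alike, and the intervals given below show which sizes remain possible. These intervals use a spread estimated over all 20 mice, not over the 8 mice alone.

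**Figure D1:**
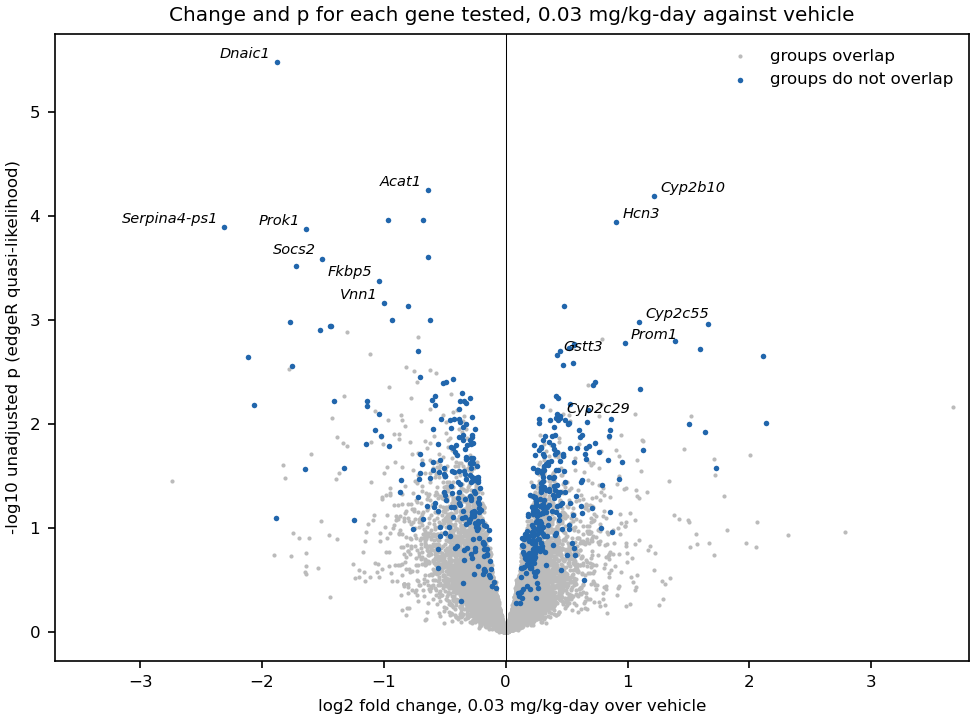
Each point is 1 of the 15197 genes tested, with the log2 fold change of 0.03 mg/kg-day over vehicle on the horizontal axis and −log10 of the unadjusted p on the vertical axis; blue points are the 504 genes whose 4 treated and 4 vehicle values do not overlap. Dnaic1 lies highest, at a log2 fold change of −1.88, and Cyp2b10 is the highest point on the right, at 1.22.

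Among the higher genes the smallest unadjusted p belonged to a P450 of the CAR and PXR list. Cyp2b10, the gene most often used as a readout of CAR in mouse liver, was at 183, 159, 246 and 222 CPM in the 0.03 mg/kg-day mice, against 72, 93.6, 64.8 and 117 CPM in the vehicle mice. The lowest treated mouse was thus above the highest vehicle mouse, and the mean level was 202 ± 39.2 CPM at 0.03 mg/kg-day and 86.9 ± 23.6 CPM in vehicle (SD, n = 4 each). The log2 fold change was 1.22 (95% interval 0.71 to 1.72, unadjusted p = 6.44e-05, adjusted p = 0.254). The interval lies above 0 but the gene did not pass across all genes in edgeR, and its adjusted p under the alternatives ranged from 0.00283 in DESeq2 to 1. Cyp2c55, a P450 known to respond to both receptors and little expressed in untreated liver, was at 7.45, 4.65, 4.57 and 7.1 CPM in the 0.03 mg/kg-day mice and at 2.27, 3.54, 1.94 and 3.25 CPM in the vehicle mice. Its groups did not overlap, with a log2 fold change of 1.1 (95% interval 0.5 to 1.69, unadjusted p = 0.00105, adjusted p = 0.791). Cyp2c29, an abundant P450 of the same cluster, was at 3853, 3610, 3945 and 3588 CPM in the 0.03 mg/kg-day mice and at 2464, 3216, 2570 and 2766 CPM in the vehicle mice. All 4 treated values were above all 4 vehicle values, at a smaller log2 fold change of 0.45 (95% interval 0.13 to 0.76, unadjusted p = 0.00861, adjusted p = 1). In these 3 genes the library that stands apart, library 11, was the highest treated mouse for Cyp2b10 and Cyp2c29 and the lowest for Cyp2c55. Without the libraries that stand apart the log2 fold changes were 1 for Cyp2b10, 1.09 for Cyp2c55 and 0.4 for Cyp2c29.

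The stretch around the transcription start of each of these 3 genes, from 250 bases before to 50 bases after it, is shown. They were taken because they passed between 0.3 and 0.03 mg/kg-day. They are also the higher P450s of the CAR and PXR list whose groups did not overlap. The sequences are RefSeq's for GRCm38.p6, all on the + strand, at chr7:25897408-25897707 for Cyp2b10, chr19:39006769-39007068 for Cyp2c55 and chr19:39286835-39287134 for Cyp2c29. Capitals mark AGGTCA, the half-site that nuclear receptors such as CAR and PXR bind in pairs, searched on both strands.
Cyp2b10: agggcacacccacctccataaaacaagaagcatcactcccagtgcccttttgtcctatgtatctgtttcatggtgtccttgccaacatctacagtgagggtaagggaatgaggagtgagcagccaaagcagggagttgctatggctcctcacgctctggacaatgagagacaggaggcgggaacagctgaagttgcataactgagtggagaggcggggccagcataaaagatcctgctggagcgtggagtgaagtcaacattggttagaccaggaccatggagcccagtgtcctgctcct
Cyp2c55: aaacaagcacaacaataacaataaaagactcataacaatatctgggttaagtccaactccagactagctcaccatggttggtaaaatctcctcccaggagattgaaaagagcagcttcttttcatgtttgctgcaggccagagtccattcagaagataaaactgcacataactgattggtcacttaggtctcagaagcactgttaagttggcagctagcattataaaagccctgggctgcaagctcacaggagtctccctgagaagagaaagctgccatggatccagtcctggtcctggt
Cyp2c29: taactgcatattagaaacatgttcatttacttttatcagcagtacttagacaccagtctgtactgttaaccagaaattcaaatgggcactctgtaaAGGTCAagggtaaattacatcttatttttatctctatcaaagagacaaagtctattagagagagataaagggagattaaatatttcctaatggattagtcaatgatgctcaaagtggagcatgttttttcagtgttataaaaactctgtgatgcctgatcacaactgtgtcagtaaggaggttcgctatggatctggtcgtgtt
The half-site occurred in Cyp2c29, 154 bases before the start, and in neither of the others. It occurred in 5340 (16.3%) of the 32851 promoters of this length, so a match here is a description of letters only. Bases outside this stretch were not searched, so sites farther from the start would be missed.

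Over the list of CAR and PXR P450s, 18 of 18 genes were tested and 0 passed. Of these, 4 were higher at an unadjusted p under 0.05 (Cyp2b10, Cyp2c55, Cyp2c29 and Cyp2b9), 1 was lower (Cyp3a16), and 3 were higher with no overlap. Over all genes tested, 1.7% were higher and 2.02% lower at that p, and 1.88% were higher with no overlap. The list's median log2 fold change was 0.09, against −0.01 over all genes tested, and 12 of its members had a positive value. Without the 5 libraries that stand apart, 4 were higher and 4 lower at an unadjusted p under 0.05 (615 and 582 over all genes). The list's median was then 0.03. Without library 9 the median was 0.05 with 3 higher and 1 lower, and without library 11 there were 4 higher and 3 lower. Cyp3a11, the main PXR readout in mouse liver, was at 4595, 6275, 8372 and 8156 CPM in the 0.03 mg/kg-day mice and at 4893, 4926, 8371 and 4216 CPM in the vehicle mice. These groups overlapped, and the log2 fold change was 0.29 (95% interval −0.26 to 0.84). The highest vehicle value belonged to library 3. Cyp3a16, a P450 more abundant in young and female mice, went the other way: it was at 58.4, 58, 103 and 34.4 CPM in the 0.03 mg/kg-day mice and at 108, 64.9, 278 and 177 CPM in the vehicle mice, a log2 fold change of −1.31 (unadjusted p = 0.0013, adjusted p = 0.825). The Cyp2b, Cyp2c and Cyp3a genes are close copies of one another, and the sources used here do not give the rule by which counting divided reads between copies. The pseudogene Cyp2c53-ps, which overlaps Cyp2c29 on the same strand, was at 0.33 to 0.77 CPM in the 0.03 mg/kg-day mice and at 0 to 0.23 CPM in the vehicle mice.

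The conjugating enzymes and transporters under CAR and PXR were 34 genes tested. Of these, 28 had a positive log2 fold change, against 7124 of 15197 over all genes, and the median was 0.12, against −0.01 over all genes. At an unadjusted p under 0.05, 3 were higher (Gstt3, Gsta2 and Papss2), against 1.7% over all genes, 0 were lower and 0 passed. Without the 5 libraries that stand apart 25 were positive and 3 were higher, and the number higher was 1 without library 9 and 5 without library 11. Gstt3, a glutathione transferase, was the member of this list whose groups did not overlap, with 198, 191, 181 and 188 CPM in the 0.03 mg/kg-day mice and 149, 139, 142 and 138 CPM in the vehicle mice. The groups were far apart relative to their spread, at a log2 fold change of 0.42 (95% interval 0.17 to 0.67, unadjusted p = 0.00214, adjusted p = 0.898). Gsta2, another glutathione transferase, was at 22, 21.6, 13.7 and 14.9 CPM in the 0.03 mg/kg-day mice and at 11.4, 13.7, 9.09 and 14.3 CPM in the vehicle mice, which overlapped. Abcc4, an efflux transporter under CAR, had a log2 fold change of 0.33 (95% interval −0.16 to 0.82), and Ces2c, a carboxylesterase, had 0.08 (95% interval −0.3 to 0.46). Gstm3, a glutathione transferase, had a wider interval, with a log2 fold change of 0.53 (95% interval −0.09 to 1.15). The message of CAR itself, Nr1i3, had a log2 fold change of −0.25 (95% interval −0.55 to 0.04).

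**Figure D2:**
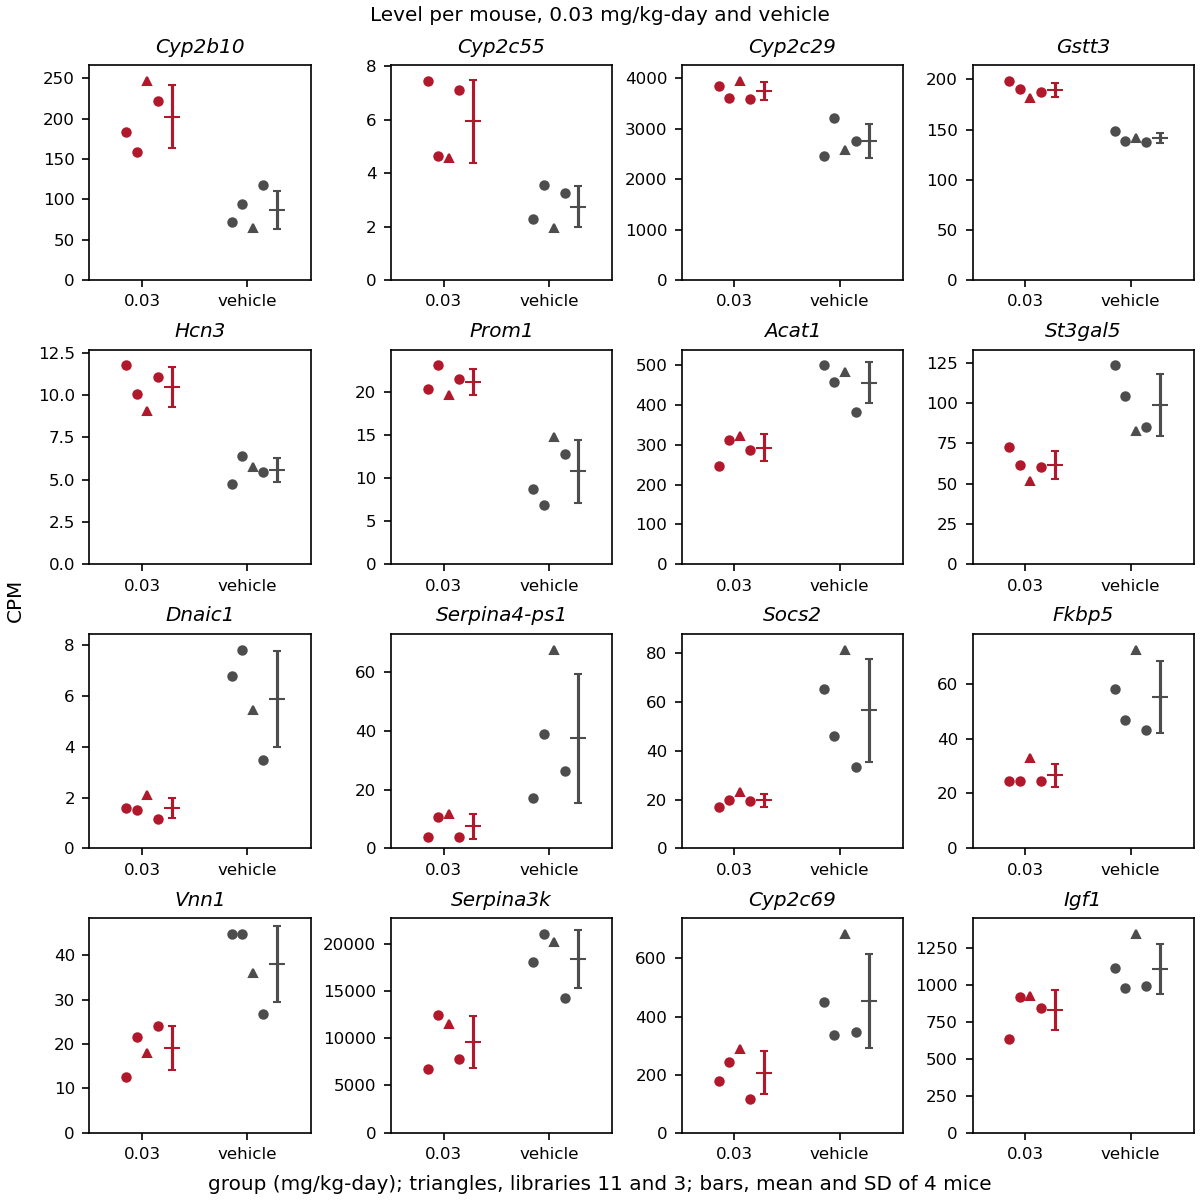
Level of 16 genes in CPM for each mouse, with the 4 mice at 0.03 mg/kg-day in red on the left and the 4 vehicle mice in grey on the right; bars give the mean and SD, and triangles mark libraries 11 and 3. In all 16 panels the red and grey points do not overlap. The panels were picked by hand from the named genes, and no overlap was part of a rule for naming. Their separation is thus not a result of its own, and over all genes 504 (3.32%) did not overlap.

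The smallest p in the table belonged to a gene that was lower at 0.03 mg/kg-day. Dnaic1, which encodes an intermediate chain of axonemal dynein in motile cilia, was at 1.61, 1.5, 2.11 and 1.16 CPM in the 0.03 mg/kg-day mice and at 6.76, 7.82, 5.44 and 3.48 CPM in the vehicle mice. Every treated mouse was below every vehicle mouse, with a log2 fold change of −1.88 (95% interval −2.49 to −1.26, unadjusted p = 3.3e-06, adjusted p = 0.0502). The adjusted p crossed 0.05 with small changes of method, from 0.000105 in DESeq2 and 0.0499 with RLE scaling to 0.487 when 1 mouse was left out. The gene lies at chr4:41569775-41638158 on the + strand (GRCm38, GENCODE M21), and Enho, which encodes the secreted peptide adropin in liver, lies beside it on the opposite strand, with the annotated intervals overlapping by 15 bases at the 3′ ends. Enho was at 36.5, 23.2, 17.7 and 18.9 CPM in the 0.03 mg/kg-day mice and at 46, 49.1, 26.5 and 19.2 CPM in the vehicle mice, which overlap, with a log2 fold change of −0.55 (95% interval −1.28 to 0.17). The sources used here do not give the strand setting of the counting, so reads within those 15 bases cannot be assigned to either gene, while the rest of each gene lies outside the overlap.

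Genes of the growth hormone pathway were among the lower ones. Socs2, a STAT5 target and feedback inhibitor of the growth hormone receptor, was at 16.8, 19.8, 23.2 and 19.4 CPM in the 0.03 mg/kg-day mice and at 65.3, 45.9, 81.4 and 33.4 CPM in the vehicle mice. The treated mice were close to one another and below the lowest vehicle mouse, while the vehicle mice spread widely. The log2 fold change was −1.51 (95% interval −2.22 to −0.8, unadjusted p = 0.000255, adjusted p = 0.388). Igf1, the main circulating product of growth hormone action on the liver, was at 631, 914, 925 and 839 CPM in the 0.03 mg/kg-day mice and at 1111, 974, 1343 and 993 CPM in the vehicle mice. These groups also did not overlap, at a log2 fold change of −0.42 (95% interval −0.76 to −0.08, unadjusted p = 0.0183, adjusted p = 1). The rest of the pathway showed no such separation downwards, and 1 gene was higher with no overlap. Of 12 genes tested, 2 were lower at an unadjusted p under 0.05 (Socs2 and Igf1), against 2.02% over all genes, 0 were higher and 0 passed. The number lower was 4 without library 11 and 1 without library 9 or vehicle library 3. The growth hormone receptor Ghr had a log2 fold change of −0.24 (95% interval −0.58 to 0.11), the kinase Jak2 had −0.05 (95% interval −0.27 to 0.18), the transcription factor Stat5b had 0.13 (95% interval −0.1 to 0.36), and Cish, another STAT5 target, had 0.08 (95% interval −0.54 to 0.7).

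Sex-biased genes that depend on growth hormone were lower in part. In the list of female-biased liver genes 27 of 27 were tested, 0 passed, 7 were lower and 2 higher at an unadjusted p under 0.05, and 4 were lower with no overlap (Cyp2c69, Cyp2c40, Abcd2 and Rtn4). The shares over all genes were 2.02% lower and 1.7% higher at that p, and 1.44% lower with no overlap. The 2 higher genes were Cyp2b9 and Cyp4a10. The list's median log2 fold change was −0.29, against −0.01 over all genes, and −0.25 without scaling factors. It was −0.31 without the libraries that stand apart. There 8 were lower and 2 higher at an unadjusted p under 0.05 (582 and 615 over all genes). The number lower was 4 without library 9 and 3 without vehicle library 1, and 0 were higher without library 10 or library 12. Cyp2c69, a P450 of female liver, was at 178, 244, 287 and 117 CPM in the 0.03 mg/kg-day mice and at 449, 336, 684 and 347 CPM in the vehicle mice, a log2 fold change of −1.14 (95% interval −1.91 to −0.37, unadjusted p = 0.00592, adjusted p = 1). In each group the library that stands apart had the highest Cyp2c69. Its close copy Cyp2c40 was at 452, 549, 506 and 282 CPM in the 0.03 mg/kg-day mice and at 779, 634, 942 and 559 CPM in the vehicle mice, and the groups again did not overlap. Cux2, a repressor that marks female liver, had a log2 fold change of −0.73 (95% interval −1.48 to 0.01). The male-biased list was not higher in turn: of 20 genes tested 0 were higher and 2 lower at an unadjusted p under 0.05 (Serpina3k and Selenbp2), and its median was −0.12. Cyp2d9 stands on both lists, which were written from general knowledge.

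Serpina4-ps1, a pseudogene of the serpin cluster, showed the largest fold among the genes named here, with 3.72, 10.7, 11.5 and 3.96 CPM in the 0.03 mg/kg-day mice and 17.1, 38.9, 67.7 and 26.2 CPM in the vehicle mice. The mice of each group differed by several fold among themselves, and the log2 fold change was −2.31 (95% interval −3.33 to −1.29, unadjusted p = 0.000127, adjusted p = 0.254). Serpina3k, an abundant secreted serpin of the same chromosome, was at 6692, 12427, 11451 and 7831 CPM in the 0.03 mg/kg-day mice and at 18038, 21023, 20183 and 14215 CPM in the vehicle mice. These values do not overlap either, with a log2 fold change of −0.94 (95% interval −1.44 to −0.43, unadjusted p = 0.000987, adjusted p = 0.791). Serpina3m, which overlaps Serpina3k on the same strand, was at 598, 739, 742 and 542 CPM in the 0.03 mg/kg-day mice and at 1124, 1181, 1313 and 705 CPM in the vehicle mice, which overlap. These are the 2 members of the acute phase list with an unadjusted p under 0.05, where 2.02% of all genes were lower at that p. The list had 28 genes tested, 21 of them with a negative log2 fold change, against 8071 of 15197 over all genes. Its median was −0.22, against −0.01 over all genes, and 0 passed. Library 11 weighs on these values: without it 11 were positive and 17 negative, and the median was −0.05. Without vehicle library 3 all 28 were negative, at a median of −0.31. Without the 5 libraries that stand apart 22 were negative, at a median of −0.19. Of those, 4 had an unadjusted p under 0.05 (582 lower over all genes). Saa1, a serum amyloid that rises steeply in inflammation, had a log2 fold change of −0.17 (95% interval −1.43 to 1.09).

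Further lower genes with no overlap between groups had varied known roles. Acat1, the mitochondrial thiolase of ketone body and isoleucine metabolism, was at 248, 313, 323 and 287 CPM in the 0.03 mg/kg-day mice and at 499, 459, 482 and 382 CPM in the vehicle mice. Its groups were well apart, and it passed in DESeq2 (adjusted p = 0.00283) but not in edgeR (log2 fold change −0.64, 95% interval −0.9 to −0.38, adjusted p = 0.254; range over the alternatives 0.00283 to 1). Fkbp5, a co-chaperone of the glucocorticoid receptor and a known target of it, was at 24.5, 24.6, 32.9 and 24.7 CPM in the 0.03 mg/kg-day mice and at 57.9, 46.7, 72.4 and 43.2 CPM in the vehicle mice. That is a log2 fold change of −1.04 (95% interval −1.56 to −0.53, unadjusted p = 0.000416, adjusted p = 0.526), with no overlap between groups. St3gal5, the sialyltransferase that makes the ganglioside GM3, was at 72.6, 61.7, 51.9 and 60.4 CPM in the 0.03 mg/kg-day mice and at 123, 104, 82.6 and 85 CPM in the vehicle mice. Nampt, the rate-limiting enzyme of NAD salvage, was at 31, 31, 32.5 and 25.8 CPM in the 0.03 mg/kg-day mice and at 43.4, 38.1, 53.7 and 51.7 CPM in the vehicle mice. Neither gene's groups overlapped, and both had an adjusted p under 0.05 in DESeq2 (0.0102 for St3gal5 and 0.0251 for Nampt) but not in edgeR (0.254 for St3gal5 and 0.388 for Nampt). Over the alternatives the adjusted p ranged from 0.0102 to 1 for St3gal5 and from 0.0251 to 1 for Nampt. Ankrd55, an ankyrin repeat gene, had 12.5, 11.2, 18 and 9.47 CPM in the 0.03 mg/kg-day mice and 22.8, 22.3, 31.7 and 23.2 CPM in the vehicle mice. In both groups the highest value was that of the library that stands apart. Prok1, a secreted prokineticin, had a log2 fold change of −1.64 (95% interval −2.36 to −0.91), and Gm6166, a processed pseudogene, had −1.72 (95% interval −2.54 to −0.9), both with no overlap.

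Among the genes higher at 0.03 mg/kg-day outside the P450s, Hcn3, a cation channel gene, was at 11.8, 10, 9.04 and 11.1 CPM in the 0.03 mg/kg-day mice and at 4.74, 6.41, 5.74 and 5.42 CPM in the vehicle mice (log2 fold change 0.91, 95% interval 0.51 to 1.3, unadjusted p = 0.000113, adjusted p = 0.254). Its interval overlaps that of Pklr, the liver pyruvate kinase gene on the opposite strand, by 711 bases at the 3′ ends, and Pklr had 207, 212, 153 and 217 CPM in the 0.03 mg/kg-day mice and 161, 173, 120 and 153 CPM in the vehicle mice. Reads within that stretch cannot be assigned to either gene for want of the strand setting. Prom1, a membrane glycoprotein of progenitor and duct cells, was at 20.4, 23.1, 19.6 and 21.6 CPM in the 0.03 mg/kg-day mice and at 8.69, 6.86, 14.8 and 12.8 CPM in the vehicle mice. The treated mice were again tightly grouped, at a log2 fold change of 0.98 (95% interval 0.42 to 1.54, unadjusted p = 0.00165, adjusted p = 0.879). Of 6 markers of bile duct cells tested, 4 had a positive log2 fold change, the median was 0.39 and 0 had an unadjusted p under 0.05. The summed level of all 7 listed markers, tested or not, was 25.88 to 28.51 CPM in the 0.03 mg/kg-day mice and 26.31 to 38.29 CPM in the vehicle mice, with overlap. The part of bile duct cells in the difference of Prom1 was not tested. Etv6, Nectin1, Lrtm1 and Flt1 were also higher with no overlap, at log2 fold changes of 0.48, 0.56, 0.56 and 0.45. Tle3, a transcriptional co-repressor, had 12.7, 10.7, 13.2 and 13.5 CPM in the 0.03 mg/kg-day mice and 7.16, 10.4, 9.02 and 7.59 CPM in the vehicle mice, Adam11 had a log2 fold change of 0.65 with no overlap, and the formin Inf2 had 0.37 with overlap. These 3 genes were named because they were known from earlier results of these data, and their values support nothing of their own.

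PPARA targets pointed in both directions at this dose. Of 45 genes tested 0 passed, and 3 were higher (Cyp4a14, Pdk4 and Cyp4a10) and 1 lower (Vnn1) at an unadjusted p under 0.05. That compares with 1.7% higher and 2.02% lower over all genes. The list's median log2 fold change was −0.04. Without the 5 libraries that stand apart, 1 was higher and 3 were lower (615 and 582 over all genes), at a median of −0.03. The median changed sign without library 11 (0.02), without vehicle library 1 (0.01) and without scaling factors (0.01), and 1 gene was higher without library 12 or without vehicle library 1. Vnn1, the pantetheinase that is a standard PPARA readout, was at 12.6, 21.5, 17.9 and 24.2 CPM in the 0.03 mg/kg-day mice and at 44.7, 44.8, 36 and 26.7 CPM in the vehicle mice, lower in every treated mouse (log2 fold change −1, 95% interval −1.51 to −0.48, unadjusted p = 0.000682, adjusted p = 0.743). Cyp4a14, a fatty acid hydroxylase, pointed the other way, with 107, 217, 199 and 389 CPM in the 0.03 mg/kg-day mice and 83.4, 124, 189 and 134 CPM in the vehicle mice. The groups overlapped and library 12 supplied the highest value, and the log2 fold change was 0.78 (95% interval 0.15 to 1.42). Pdk4, the kinase that restrains pyruvate oxidation, had 6.68, 7.86, 9.39 and 8.09 CPM in the 0.03 mg/kg-day mice and 6.37, 4.78, 4.92 and 4.97 CPM in the vehicle mice, which did not overlap. The oxidation enzymes showed intervals around 0: Ehhadh had a log2 fold change of −0.06 (95% interval −0.37 to 0.25) and Cpt1a had −0.09 (95% interval −0.37 to 0.18). Acot1, a thioesterase strongly induced by PPARA, had −0.26 (95% interval −0.68 to 0.16).

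**Figure D3:**
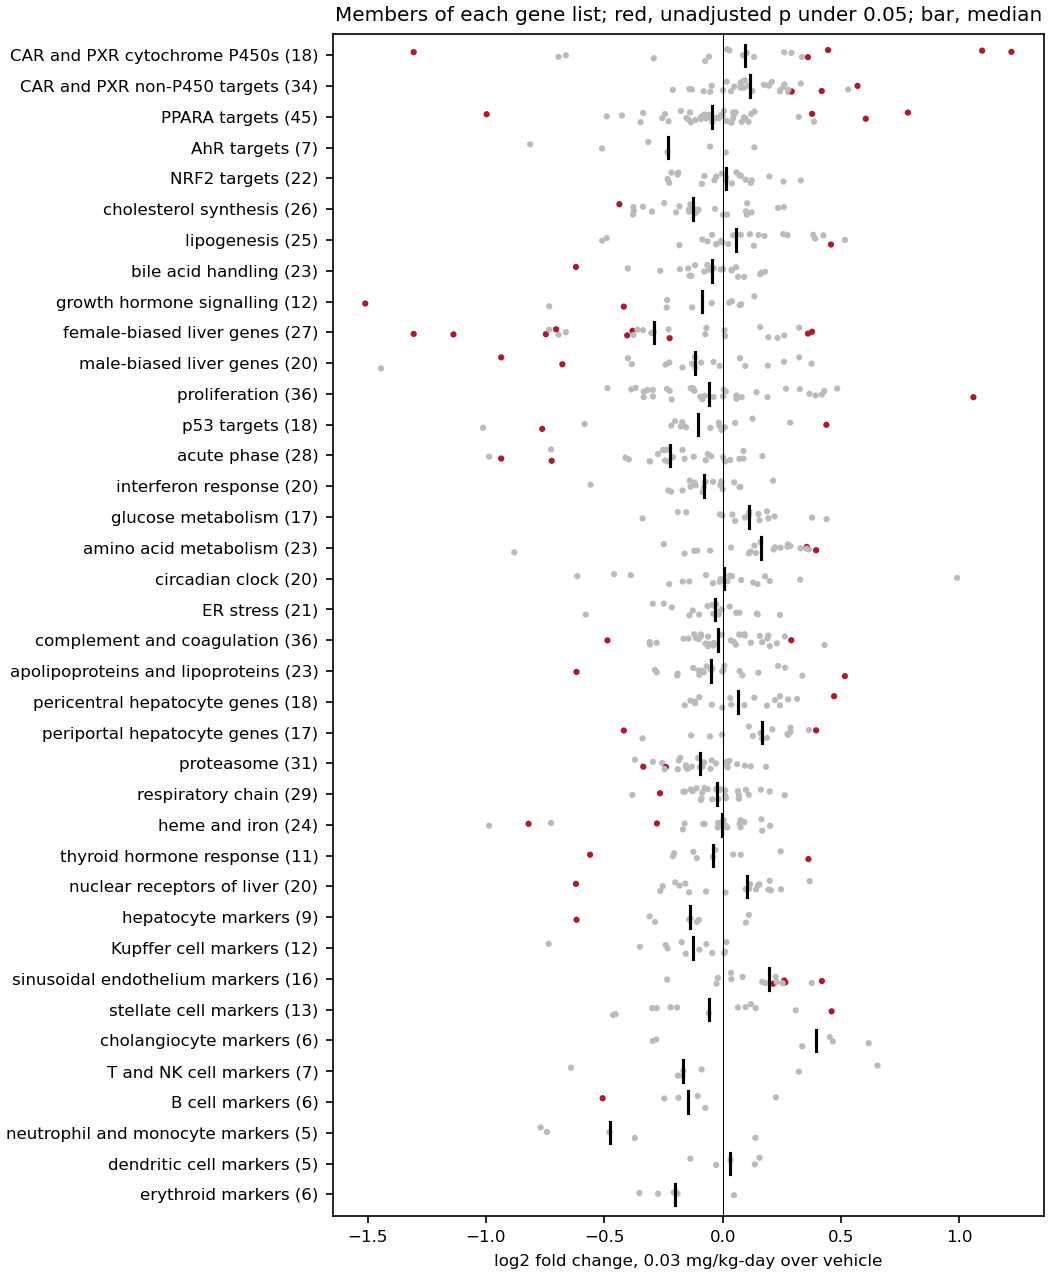
Each point is 1 gene, placed by its log2 fold change of 0.03 mg/kg-day over vehicle, with red for an unadjusted p under 0.05 and a black bar for the median of the list; the number of genes tested stands beside each list of 5 genes or more. The medians farthest from 0 are those of neutrophil and monocyte markers (−0.48, 5 genes) and of bile duct markers (0.39, 6 genes), and the female-biased list lies at −0.29 and the non-P450 targets of CAR and PXR at 0.12.

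The remaining metabolic lists held 0 passing genes. In cholesterol synthesis 26 genes were tested, and the median was −0.13. At an unadjusted p under 0.05, 1 was lower (Idi1, the isopentenyl diphosphate isomerase) and 0 were higher, against 2.02% and 1.7% over all genes. In lipogenesis 25 genes were tested and 1 was higher at that p, Acly, the ATP citrate lyase. In lists of this size, 1 such gene is not a result about the list. Fasn, fatty acid synthase, had a log2 fold change of 0.52 with a wide interval (95% interval −0.23 to 1.27), and Scd1, a desaturase, had −0.04 (95% interval −0.53 to 0.44). Bile acid synthesis showed Cyp7a1, its rate-limiting enzyme, at −0.06 (95% interval −0.77 to 0.65) and Cyp8b1 at −0.15 (95% interval −0.81 to 0.52). Nr0b2, the repressor SHP of bile acid synthesis, was lower with no overlap, at 12.8, 15.4, 12.8 and 17.7 CPM in the 0.03 mg/kg-day mice and 27.6, 24.5, 18.1 and 20 CPM in the vehicle mice (log2 fold change −0.62, unadjusted p = 0.0331, adjusted p = 1). Amino acid metabolism had 23 genes tested, 17 of them positive, against 7124 of 15197 over all genes, and a median of 0.16 (0.05 without library 9). It was led by Hal, the histidine ammonia-lyase, at 542, 401, 369 and 455 CPM in the 0.03 mg/kg-day mice and 341, 343, 322 and 338 CPM in the vehicle mice. Apoa1, the main protein of high-density lipoprotein, was at 4548, 4114, 3099 and 3661 CPM in the 0.03 mg/kg-day mice and at 6521, 7619, 5435 and 4086 CPM in the vehicle mice, which overlap slightly (log2 fold change −0.62, unadjusted p = 0.00302, adjusted p = 1).

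0 of the proliferation and stress genes passed. Of 36 proliferation genes tested, 1 was higher at an unadjusted p under 0.05 and 0 lower, against 1.7% and 2.02% over all genes. The higher gene, Cdc20, was at under 1 CPM in all 8 mice. The list's median of −0.06 changed sign without scaling factors and without any 1 of library 9, library 11 and vehicle library 1. Top2a, a topoisomerase of dividing cells, had 2.89, 3.83, 4.47 and 3.03 CPM in the 0.03 mg/kg-day mice and 3.31, 2.81, 2.98 and 2.74 CPM in the vehicle mice, and Mki67 had a log2 fold change of −0.3 (95% interval −1 to 0.41). Of 18 p53 targets, Gdf15 was higher (0.44) and Cdkn1a was lower (−0.76), both at low levels. Of 22 NRF2 targets 0 and of 7 AhR targets 0 had an unadjusted p under 0.05. Nqo1, a target of both factors, had a log2 fold change of −0.23 (95% interval −0.8 to 0.33), and Cyp1a2 had 0.13 (95% interval −0.46 to 0.72).

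**Figure D4:**
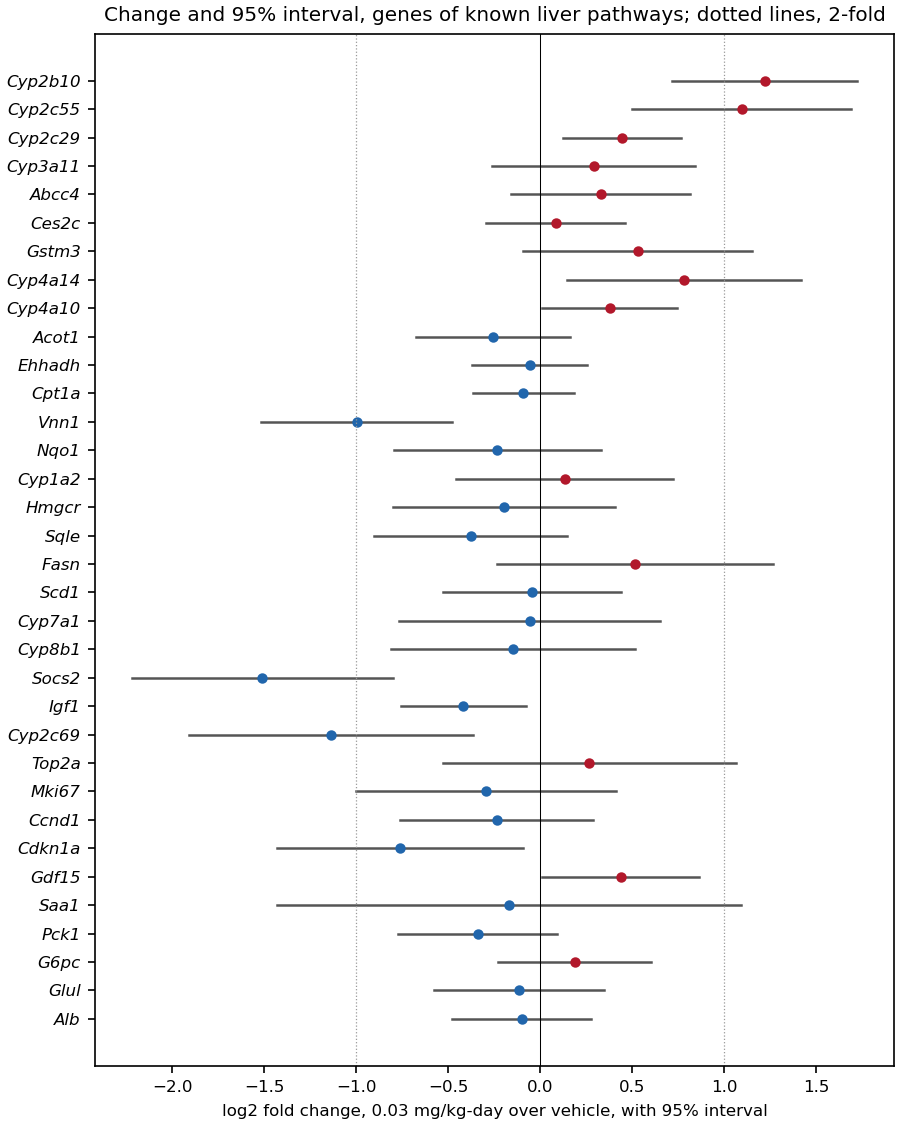
Log2 fold change of 0.03 mg/kg-day over vehicle (points, red above 0 and blue below) with its 95% interval (lines) for 34 genes that stand for known liver pathways; dotted lines mark a 2-fold change. The intervals of Cyp2b10, Cyp2c55, Cyp2c29, Cyp4a14, Cyp4a10, Vnn1, Socs2, Igf1, Cyp2c69, Cdkn1a and Gdf15 lie off 0. Those of Cyp3a11, Ehhadh, Cpt1a, Cyp7a1 and Alb span it.

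Markers of other cell types were compared because liver pieces hold more than hepatocytes. Of 16 markers of sinusoidal endothelium, 13 had a positive log2 fold change, against 7124 of 15197 over all genes, and the median was 0.2. At an unadjusted p under 0.05, 4 were higher (Stab1, Pecam1, Stab2 and Kdr), against 1.7% over all genes. Clec4g (−0.23), Bmp2 (−0.03) and Lyve1 (−0.02) were the 3 negative markers. Without the 5 libraries that stand apart 7 of the markers were higher at that p, while over all genes the number higher rose from 258 to 615. The number of higher markers was 2 without library 10, library 12 or vehicle library 1, and 1 without vehicle library 2. Their summed level was 562.2 to 624.2 CPM in the 0.03 mg/kg-day mice and 517.3 to 561.6 CPM in the vehicle mice, with no overlap. Stab1, a scavenger receptor of these cells, was at 35.2, 33, 35.7 and 34.6 CPM in the 0.03 mg/kg-day mice and at 23, 23.1, 30.5 and 27.1 CPM in the vehicle mice. Flt1, named above, is also a gene of endothelium, and the part of endothelial cells in its difference was not tested. In bulk tissue, more cells of a type and more RNA per cell cannot be told apart. Kupffer cell markers summed to 327.6 to 384.1 CPM in the 0.03 mg/kg-day mice and 331.7 to 406.7 CPM in the vehicle mice, with overlap. Stellate cell markers summed to 417.2 to 455.6 CPM in the 0.03 mg/kg-day mice and 430.7 to 480.9 CPM in the vehicle mice, also with overlap.

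The next dose shows how far the P450s were from their later levels. Between 0.3 and 0.03 mg/kg-day 3 genes passed (0.0197% of 15197 genes), all higher at 0.3 mg/kg-day: Cyp2c55 (log2 fold change 2.34 ± 0.27 SE, adjusted p = 0.000437), Cyp2c29 (1.24 ± 0.15 SE, adjusted p = 0.000923) and Cyp2b10 (1.53 ± 0.24 SE, adjusted p = 0.0211). With only the 8 mice of those groups in the fit, 1 of them passed, Cyp2c55. From vehicle over the 4 doses, low to high, Cyp2b10 averaged 86.9 ± 23.6, 202 ± 39.2, 583 ± 172, 1582 ± 479 and 2247 ± 334 CPM (SD, n = 4 each). Cyp2c55 averaged 2.75 ± 0.77, 5.94 ± 1.54, 30 ± 5.97, 344 ± 144 and 646 ± 72.3 CPM, each step upwards. Cyp2c29 averaged 2754 ± 332, 3749 ± 177, 8853 ± 1662, 8526 ± 1114 and 7990 ± 1098 CPM, with its highest mean at 0.3 mg/kg-day.

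0 genes passed as lower at 0.3 than at 0.03 mg/kg-day in edgeR, and Cyp3a16 passed as lower in DESeq2 (log2 fold change −1.41) and with a term for the libraries that stand apart (−1.36). Socs2 averaged 56.5 ± 21.2, 19.8 ± 2.64, 14.1 ± 5.51, 9.16 ± 3.68 and 6.85 ± 3.02 CPM from vehicle to 6.0 mg/kg-day, and 0.3 against 0.03 mg/kg-day had an adjusted p of 1. Vnn1 averaged 38.1 ± 8.65, 19.1 ± 5.01, 16.4 ± 4.31, 52.6 ± 19.1 and 135 ± 7.46 CPM, so that its lower values at the 2 lowest doses stood beside values above vehicle at the 2 highest. St3gal5 averaged 98.8 ± 19, 61.7 ± 8.5, 65.7 ± 8.28, 87.1 ± 4.34 and 160 ± 21.7 CPM, with a mean above vehicle at 6.0 mg/kg-day only. Dnaic1 averaged 5.88 ± 1.87, 1.59 ± 0.39, 0.58 ± 0.18, 0.53 ± 0.3 and 0.17 ± 0.04 CPM. Hcn3 and Prom1 were highest at the low doses: Hcn3 averaged 5.58 ± 0.69, 10.5 ± 1.19, 8.9 ± 1.31, 5.81 ± 1.52 and 4.08 ± 1.02 CPM, and Prom1 averaged 10.8 ± 3.67, 21.2 ± 1.52, 23.5 ± 3.73, 15.9 ± 2.88 and 7.72 ± 3.78 CPM. Against vehicle, 44 genes passed at 0.3 mg/kg-day (0.29%), 21 higher (0.138%) and 23 lower (0.151%), and among them were Cyp2b10, Cyp2c55, Cyp2c29, Dnaic1, Socs2, Vnn1, Serpina3k and Fkbp5. The contrasts of 0.03 and of 0.3 mg/kg-day share the 4 vehicle mice, so their values are given side by side and not as support for each other.

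**Figure D5:**
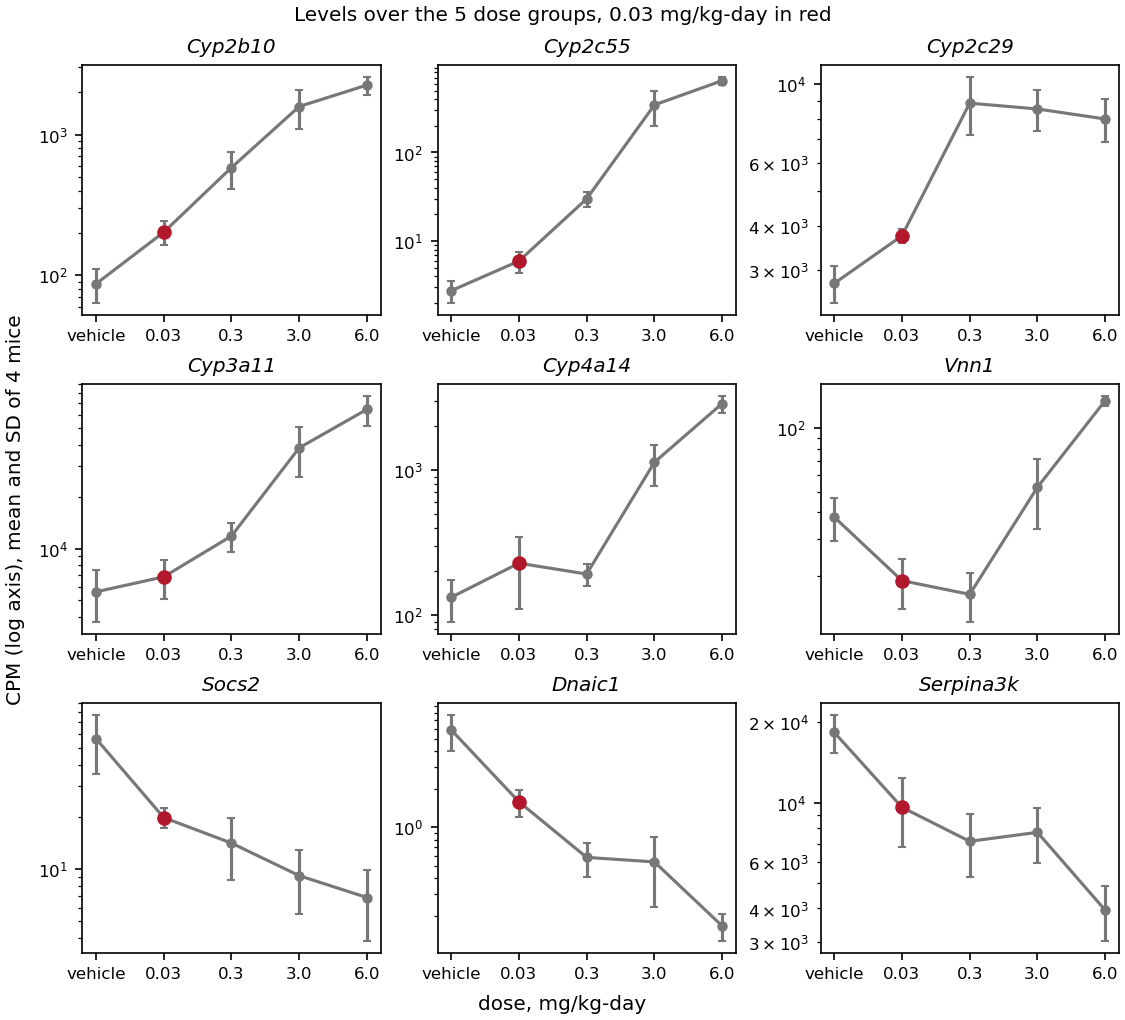
Mean level with SD of 4 mice (CPM, log axis) in vehicle and at the 4 doses for 9 genes, with 0.03 mg/kg-day in red. The means of Cyp2b10 and Cyp2c55 are higher at each step, those of Cyp2c29 lie between 7990 and 8853 CPM from 0.3 mg/kg-day on, Vnn1 is below vehicle at the lower pair of doses and above it at the higher pair, and Socs2 and Dnaic1 are lower at every dose than in vehicle.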

How the data were processed

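Liver RNA of 20 mice was sequenced on an Illumina sequencer, with 1 library per mouse over 4 lanes. Estimated counts per gene were deposited by the authors as 1 table with a column per library, and 58% of the values were whole. Partek and the build GRCm38.p5 appear in the submitters' processing notes, and the aligner, counter, annotation and strand setting were not given in the sources used here. The counts were rounded, 6906 rows were left out with edgeR's filterByExpr, and TMM factors scaled the libraries. edgeR 4.0.16 in R 4.3.3 fitted 1 mean per dose group over all 20 mice by quasi-likelihood (15 residual degrees of freedom). Adjustment of p was by Benjamini-Hochberg over 15197 genes, and 0.05 was the threshold. DESeq2 1.42.0 and limma-voom (limma 3.58.1), other scalings, filters and fits without 1 mouse were alternatives. The SE of a log2 fold change is its size over the square root of F. Columns of other series in the table numbered 0.

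Named genes were the 8 smallest unadjusted p in each direction with no overlap and a mean of 5 CPM or more, genes passing under an alternative that kept all 8 mice, 45 fixed pathway genes (not all are reported here), and the 2 smallest p of each list. A further 10 genes were chosen after their values were seen: Enho, Cyp2c53-ps, Cyp2c40, Cyp2b9, Papss2, Cux2, Stab1, Ghr, Jak2 and Stat5b. Abcd2, Rtn4, Pecam1, Stab2, Kdr, Clec4g, Bmp2 and Lyve1 were named to account for a count. Adam11, Inf2 and Tle3 were known from earlier results. The contrast, lists and genes were chosen with earlier results of these data known. Replicates are single animals per the labels. GENCODE M21 symbols matched 20992 (95%) of 22101 row names. The planned share of mitochondrial genes was not used here.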

Additional observations from a re-analysis of the deposited data

Results flagged for a closer look

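Of 194 groups of 4 values looked at among the named genes and library measures, 11 had 1 mouse far from its other 3, and chance flags about 1 in 20 groups. In the 0.03 mg/kg-day group library 11 was the distant mouse for Fkbp5 (32.9 CPM, against 24.5 to 24.7 in the others), Mt1 (59.2 CPM, against 41.2 to 43.9), Pklr (152.9 CPM, against 206.8 to 217.1) and Ghr (526 CPM, against 351.1 to 376.8), and library 12 for Flt1 (16.8 CPM, against 14.6 to 14.7). In the vehicle group library 3 was the distant mouse for Ankrd55 (31.7 CPM, against 22.3 to 23.2), Rab30 (48.5 CPM, against 27.2 to 30.8), Cyp3a11 (8371 CPM, against 4216 to 4926) and Cyp8b1 (406.1 CPM, against 215.3 to 247.1). Library 1 was the distant vehicle mouse for Pdk4 (6.37 CPM, against 4.78 to 4.97) and Cdc20 (0.494 CPM, against 0.171 to 0.225). Libraries 11 and 3 are those that stand apart in their groups.

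The effects of 0.3 and 0.03 mg/kg-day differed by the test of that difference for 3 genes, with log2 differences of 1.53 for Cyp2b10, 2.34 for Cyp2c55 and 1.24 for Cyp2c29.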

How the results depend on the processing

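Between 0.03 mg/kg-day and vehicle, where 0 genes passed, no scaling factors, no filter on low counts, a minimum of 1 CPM in 4 libraries and a fit of only the 8 mice also gave 0. RLE factors, limma-voom, unrounded counts and an adjusted p under 0.1 each gave 1, Dnaic1, also the named gene that passed there. DESeq2 gave 10, all of them named genes. Leaving out 1 mouse gave 0 to 1, with 1 (Dnaic1) without vehicle library 4. Chosen after seeing the data, leaving out libraries 3, 11, 15, 19 and 23 gave 2 and a term for them gave 13, all of them named genes. Passing in a fit that kept all 8 mice was itself a rule for naming. That the 10 and the 13 genes are named ones is thus not a result of its own. Genes with an unadjusted p under 0.05 numbered 396 to 842 without 1 mouse, 1197 without the 5 libraries and 1272 with the term, against 565. Genes whose groups did not overlap numbered 723 to 1397 without 1 mouse (1397 without library 3 and 1369 without library 11) and 2278 without the 5 libraries, against 504. Fewer values are easier to keep apart. Between 0.3 and 0.03 mg/kg-day, where 3 passed, DESeq2 gave 17, the term 13, only the 8 mice 1, and leaving out 1 mouse 2 to 4. Otherwise the cause of these moves was not tested. Of 1690 values recomputed for 94 single genes, 29 newly passed, each in the direction of the main fit. Some of these genes were named because they passed under an alternative. The other 1661 moved by no more than about the SD between mice of a group. That bound is loose for fits that share most of their mice, and the main fit held no call that could be lost. The labels give no pairing of mice, so no paired analysis was run.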
